A study of Mus musculus with 8 samples.

Results

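The cytosolic ribosomal protein genes were examined in tumor-associated macrophages (TAMs) that carried or lacked the microRNA miR-21. Members were the rows of the deposited expression table whose symbol begins with Rpl, Rps or Rplp and a number, or is Rpsa, without the Rps6k kinases and without symbols that end in -ps. This rule, which uses names and no measured value, took 365 of 53247 rows. Of these, 77 are the standard genes of the cytosolic ribosome, with 43 for the large subunit, 3 for the P-stalk and 31 for the small subunit. The remaining rows are 11 with paralog symbols, 8 of them annotated as protein coding, 272 whose symbols number them as pseudogenes, 9 of them annotated as protein coding, and 5 other symbols, 1 of which, Rps19bp1, encodes a protein that binds a subunit and is no subunit itself.

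The ribosome joins a small subunit, which reads the messenger RNA, to a large subunit, which links the amino acids. Most of the proteins are present once per ribosome, and the genes, scattered over the genome, are known to be expressed in proportion to each other. Their mRNAs begin with a short tract of pyrimidines, the TOP motif, through which the mTORC1 kinase and the binding protein Larp1 control their translation.

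RNA was sequenced from TAMs of 4 WT and 4 miR-21-/- C57/BL6 mice, 1 library each, all 10 weeks old. Lewis lung carcinoma (LLC) cells, which keep their own miR-21, had been placed under the skin at 8 weeks of age and grew for 14 days before CD45+ CD11b+ MHCII+ F4/80+ cells were sorted. The miR-21-/- mice lack the microRNA in every cell of the host, so the design does not separate its loss in the macrophage from its loss elsewhere. The title of miR-21-/- replicate 1 joins 2 animal numbers, and whether it is a pool was not given. Values are read counts scaled to the depth of each library (CPM), and from the smallest step between them 1 CPM corresponds to 20.2 to 33.4 reads, depending on the library. Mir21a itself was listed at the table's floor in all 8 libraries, so it does not check the labels. In bulk RNA, fewer cells of a type and less RNA per cell cannot be told apart.

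The standard ribosomal protein genes were lower in miR-21-/- TAMs almost without exception. Together they made up 1.22, 1.33, 1.33 and 1.41% of the listed CPM in the 4 WT libraries and 0.925, 1.00, 0.972 and 1.01% in the 4 miR-21-/- libraries. The highest miR-21-/- share lay below the lowest WT share. The mean fell from 1.32% ± 0.0797 (SD, n = 4) to 0.976% ± 0.0374 (SD, n = 4), which is 26.2% less. The share of large subunit and P-stalk genes went from 0.734% ± 0.0421 to 0.552% ± 0.0205, and that of small subunit genes from 0.589% ± 0.0376 to 0.425% ± 0.0172 (SD, n = 4 each). Neither pair of groups overlapped.

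**Figure D1:**
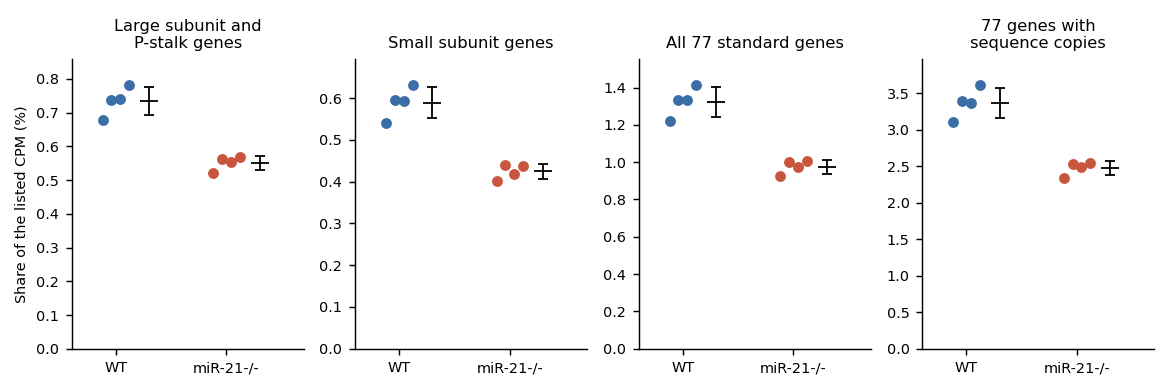
Share of the listed CPM (vertical axis, percent, from 0) held by ribosomal protein genes in each library, with the mean and SD (n = 4 per genotype) beside the points. In all 4 panels the miR-21-/- libraries lie below the WT libraries, and for the 77 standard genes they lie between 0.925 and 1.01% against 1.22 to 1.41%.

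Each gene was then tested by itself with limma on log2(CPM + 1) across the 13850 genes whose mean reached 1 CPM of the listed total, with Benjamini-Hochberg adjustment over all of them. Of the 77 standard genes, 76 passed this filter. At an adjusted p of 0.05 or less, 69 of the 76 were lower and 0 were higher, while 26.5% of all genes tested were lower and 9.49% were higher. The median log2 fold change of the 76 genes was -0.44 against -0.10 for all genes tested, a difference of -0.33. The fold changes are on the log2(CPM + 1) scale, which understates changes of low genes. In 69 of the 76 genes the 4 miR-21-/- values all lay below the 4 WT values, which held for 25.7% of all genes tested. The typical size was modest, with 3 of 76 genes past the stricter rule of an adjusted p of 0.005 or less with a change over 1.5-fold, against 4.23% of all genes for falls of that size.

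The level of all genes moved with the scaling. The median of ratios divides each library by its own factor and so shifts all genes by nearly the same amount. The distance of the ribosomal protein genes from all genes is therefore kept by construction and was not tested by this scaling. Scaling the libraries by the median of ratios brought the median of all genes tested from -0.10 to 0.00 on the log2 scale. The standard genes then had a median of -0.32, and 59 of 76 were lower at an adjusted p of 0.05 or less (limma), with 0 higher, against 14.4% of all genes lower and 15.9% higher.

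The fall was seen in each part of the ribosome, and the counts stand against 26.5% lower among all genes tested, or 14.4% with the median of ratios. For the large subunit, 36 of 42 tested genes were lower, with a median log2 fold change of -0.42. For the small subunit, 30 of 31 were lower, with a median of -0.48. With the median of ratios these counts were 29 of 42 and 27 of 31. All 3 P-stalk genes, whose products recruit the elongation factors to the large subunit, were lower, with a median of -0.42. The ratio of large subunit and P-stalk CPM to small subunit CPM was 1.25 ± 0.00913 in WT and 1.30 ± 0.0147 in miR-21-/- TAMs (SD, n = 4 each), and the groups did not overlap.

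The genes with the largest falls came from both subunits. Rps6, the small subunit protein phosphorylated by the S6 kinases (chr4:86854660-86857412, mm10), measured 63.5, 71.3, 70.0 and 72.0 CPM in the WT libraries and 40.5, 51.3, 47.3 and 48.3 CPM in the miR-21-/- libraries. Its log2 fold change was -0.56 (SE 0.076, limma adjusted p = 0.000573). Rps16, a small subunit protein near the decoding site, measured 58.8, 67.2, 71.6 and 68.1 CPM against 42.6, 46.7, 40.3 and 44.3 CPM. All WT values of both genes lay above all miR-21-/- values. Rps16 had a log2 fold change of -0.60 (SE 0.071, limma adjusted p = 0.000268) and Rpl10a, a protein of the large subunit's L1 stalk, one of -0.60 (SE 0.086, limma adjusted p = 0.000721). Rpl35, a large subunit protein near the peptide exit tunnel, fell from 69.9 ± 5.95 to 47.5 ± 3.37 CPM (SD, n = 4 each).

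The steepest value, for Rpl17 of the large subunit, came from a low row. Its CPM was 3.79, 3.70, 2.66 and 5.49 in WT and 1.35, 2.09, 1.25 and 1.88 in miR-21-/- TAMs, with a log2 fold change of -0.88 (SE 0.176, limma adjusted p = 0.00415). Under the alternative settings this fold change ran from -1.19 to -0.25, with a limma adjusted p of up to 0.0239. Rpl17, Rps16 and Rpl10a were the 3 standard genes past the stricter rule. As described below, most reads that match these genes were listed in the rows of other loci.

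At the other end, 7 of the 76 genes did not pass the test. Rpl36a was the 1 gene above 0, at 1.08 CPM ± 0.228 in the WT group and 1.11 CPM ± 0.178 in the miR-21-/- group (SD over 4 mice each). Its log2 fold change was 0.02 (SE 0.120, limma adjusted p = 0.896). Without WT replicate 3 it was -0.05. Rpl9 had a log2 fold change of -0.17 (limma adjusted p = 0.0959) and Rpl27 one of -0.19 (limma adjusted p = 0.132). Rpl11, which with Rpl5 and 5S rRNA binds the p53 inhibitor Mdm2 when ribosome assembly is disturbed, measured 9.82 CPM ± 1.91 in the WT group and 8.49 CPM ± 1.09 in the miR-21-/- group (SD over 4 mice each), with a limma adjusted p of 0.342. Rpl38, known for the translation of Hox mRNAs, had a log2 fold change of -0.38 (limma adjusted p = 0.057), and Rpl35a and Rps13 were the others. The mean CPM of these 7 rows over all libraries ran from 1.098 for Rpl36a to 27.7 for Rpl35a.

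Among the genes listed for known roles, Rpl11 and Rpl38 did not pass the test, as given above, and the other 13 were lower, where 26.5% of all genes tested were lower. Rplp0, the anchor of the P-stalk and a common reference gene for quantitative PCR, measured 634, 687, 716 and 710 CPM in the WT libraries and 481, 526, 497 and 544 CPM in the miR-21-/- libraries. It fell by 0.42 on the log2 scale (SE 0.066, limma adjusted p = 0.00109), so the reference gene moved with the rest. Rplp1 fell by 0.36 and Rplp2 by 0.44 on the log2 scale. Rpl13a, a large subunit protein that can leave the ribosome to silence inflammatory mRNAs in myeloid cells, fell from 308.6 ± 19.7 to 235.9 ± 11.0 CPM (SD, n = 4 each). Rps19 and Rps14, genes tied to inherited and acquired failure of red cell production, fell by 0.49 and 0.44 on the log2 scale. Rpsa, also described as a laminin receptor, fell by 0.50, Rps25 by 0.35, Rpl22 by 0.42, Rpl10 by 0.38 and Rps27a, made as a fusion with ubiquitin, by 0.52. Each of these genes from Rplp0 on passed the limma test at an adjusted p of 0.05 or less and had groups that did not overlap. Rpl5 fell by 0.35 (limma adjusted p = 0.0249), a call lost when any of WT replicates 1, 2 and 3 or miR-21-/- replicate 2 was left out, with adjusted p from 0.0575 to 0.0617. It was also lost with no filter (0.0587), the median of ratios (0.101) and quantile normalization (0.182).

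Subunit genes whose symbols the rule does not match were lower as well. Rack1, the signaling scaffold on the small subunit, went from 636.9 ± 51.0 to 461.3 ± 24.0 CPM (SD over 4 mice each) and fell by 0.46 on the log2 scale (limma adjusted p = 0.00114). Fau, which encodes a small subunit protein fused to a ubiquitin-like protein, had a log2 fold change of -0.45 (limma adjusted p = 0.00417). The 4 WT and 4 miR-21-/- values of each of these genes did not overlap.

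The paralogs differed among themselves. Of 11, 8 passed the filter. At an adjusted p of 0.05 or less 5 were lower and 0 higher, against 26.5% lower and 9.49% higher among all genes tested, and 4 were lower and 1 higher with the median of ratios. Rpl22l1, the paralog that can replace Rpl22, fell by 0.56 on the log2 scale (limma adjusted p = 0.00129), from 29.2 ± 3.06 to 19.5 ± 1.73 CPM (SD, n = 4 each). Rpl7l1, a factor of large subunit assembly, fell by 0.35 and Rpl36al by 0.19, the latter with a limma adjusted p of 0.0121, or 0.230 with the median of ratios. Rps27rt, a copy of Rps27, and Rps3a2, annotated as a processed pseudogene, fell by 0.38 and 0.46. Rps3a3 had a log2 fold change of -0.28 (limma adjusted p = 0.0719) and Rps4l one of 0.14 (limma adjusted p = 0.659), which was -0.11 without WT replicate 2. Rps27l, a paralog of Rps27 known as a p53 target, measured 22.9, 22.2, 20.7 and 22.9 CPM in the WT libraries and 22.9, 24.5, 23.0 and 23.8 CPM in the miR-21-/- libraries. Its log2 fold change was 0.08 (limma adjusted p = 0.287), or 0.20 (limma adjusted p = 0.0343) with the median of ratios.

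Many reads of this gene family were listed in the rows of copies, most of them annotated as pseudogenes, which are intronless copies of the mRNAs. Copies were found by aligning the coding sequence of each standard gene to the GENCODE transcripts and taking loci with at least 90% identity over at least 50% of both sequences. The table held 881 such rows, 853 annotated as pseudogenes and 27 as protein coding, and 73 of the 77 genes had at least 1. The gene rows held 39.4% of the CPM of genes and copies together, and 54 genes held under 50% of their own sum. For Rpl10, a late-joining large subunit protein, the gene row averaged 33.3 CPM and Rpl10-ps3, annotated as protein coding and with 100% identity of the coding sequence, 549.5 CPM. For Rpl17 the gene row held 0.749% of the sum and for Rpl36a 0.912%.

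Copy rows also held more fractions of reads than other rows. Among low values, 29.2 to 34.7% of those in copy rows were whole numbers of reads (within 0.02 read, up to 20 reads), against 73.4 to 74.6% in other rows. How the authors placed reads that fit several loci was not given in the sources used here, so the rows of a gene and its near-identical copies do not tell which locus was transcribed. Of the 272 rows with numbered pseudogene symbols, 65 passed the filter. At an adjusted p of 0.05 or less 52 of these were lower and 0 higher, or 40 lower with the median of ratios, against 26.5% and 14.4% of all genes tested. Their median log2 fold change was -0.42. Rpl10-ps3, Rpl3-ps1 and Rps6-ps4, the rows of that kind with the highest mean CPM, fell by 0.49, 0.42 and 0.49 on the log2 scale. Rpl18-ps1 was the 1 row of that kind past the stricter rule, at 22.3 ± 2.38 against 14.5 ± 1.85 CPM (SD, n = 4 each).

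Adding the copies to each gene narrowed the spread between genes. This sum was made after the data had been seen. All 77 genes were then lower at a limma adjusted p of 0.05 or less, against 25.9% of all genes tested, and in all 77 the groups did not overlap, against 25.2%. The median log2 fold change was -0.43, and the SD over genes was 0.081, compared with 0.123 for the gene rows. Rpl36a with its copies came to 140.7 CPM ± 12.1 in the WT group and 100.1 CPM ± 7.77 in the miR-21-/- group (SD over 4 mice each). On the log2 scale this sum fell by 0.49 (limma adjusted p = 0.00116). Rpl17 with its copies had a log2 fold change of -0.51, Rpl9 one of -0.46, and Rpl11 one of -0.29. These sums come almost wholly from copy rows. The gene row held 0.749% of the sum for Rpl17, 0.912% for Rpl36a, 3.80% for Rpl9 and 3.58% for Rpl11. Why these single rows stood apart was not tested. Rpl23a, the gene below the filter at 0.637 ± 0.279 and 0.790 ± 0.409 CPM (SD, n = 4 each, exact two-sided permutation p = 0.6, where 0.0286 is the smallest possible), reached 378.0 ± 13.3 and 281.3 ± 17.1 CPM with its copies.

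**Figure D2:**
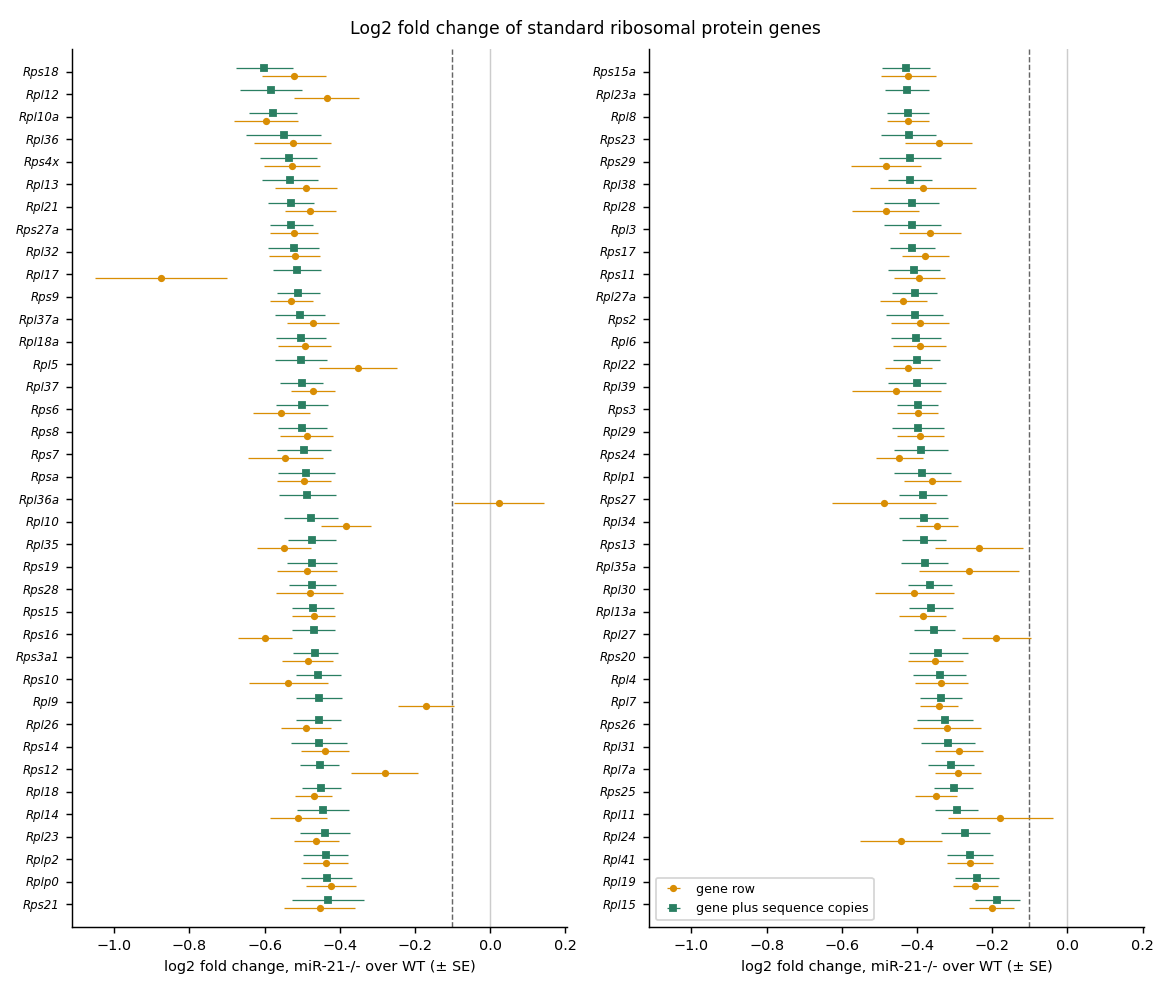
Log2 fold change of miR-21-/- over WT TAMs (horizontal axis, ± SE) for 76 of the standard genes, as the gene's own row (circles) and with its sequence copies added (squares), sorted by the latter. The dashed line marks the median of all genes tested, -0.10, and the squares run from -0.60 for Rps18 to -0.19 for Rpl15, while the circles of Rpl17 and Rpl36a lie at -0.88 and 0.02.

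**Figure D3:**
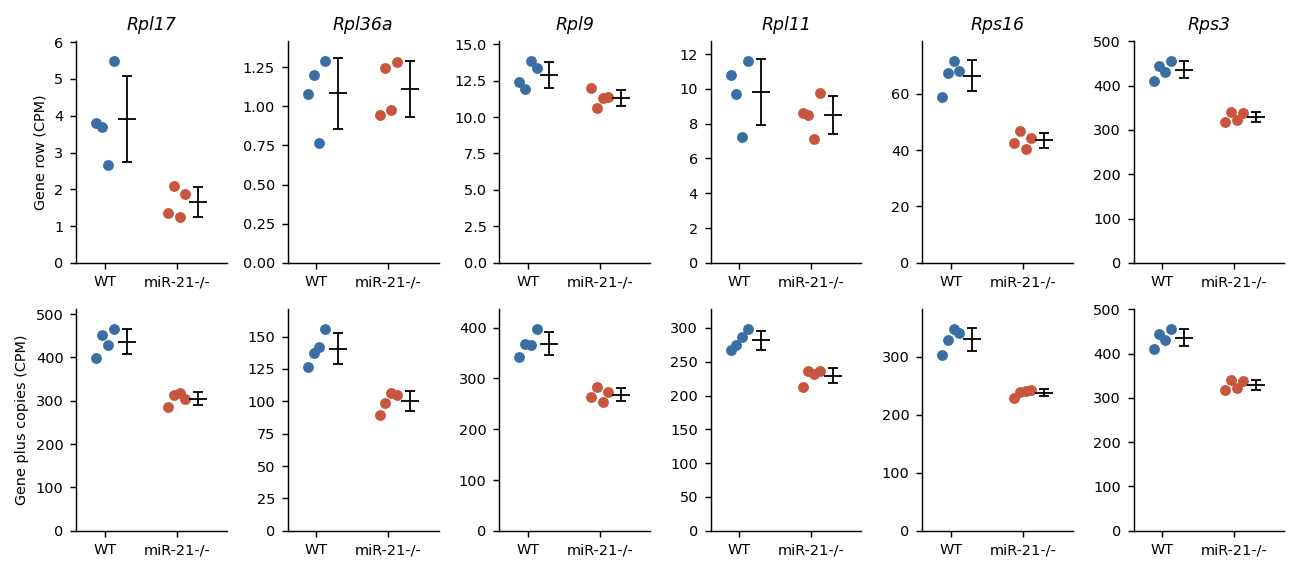
CPM in each library (vertical axes, from 0) of 6 genes as single rows (top) and with copies (bottom), with mean and SD (n = 4 per genotype). The rows of Rpl36a, Rpl9 and Rpl11 overlap between genotypes and their sums do not. Rps3, for which the rule found no copy, has the same values in both.

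Genes with no copy by the rule above gave the same direction. The rule asks for 50% of the copy's whole transcript, so copies of a very short coding sequence, as in Rpl41, can be missed. Rps3, a small subunit protein at the mRNA entry, measured 411, 445, 431 and 456 CPM in the WT libraries and 318, 341, 323 and 339 CPM in the miR-21-/- libraries, a log2 fold change of -0.40 (SE 0.055, limma adjusted p = 0.000608). Rpl8, a large subunit protein, had a log2 fold change of -0.42 (limma adjusted p = 0.000501). Rpl41, the smallest ribosomal protein, had one of -0.26 (limma adjusted p = 0.00887). These 3 genes were lower in every miR-21-/- library than in every WT library, which held for 25.7% of all genes tested.

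Summing the copies also brought the levels of the genes closer to each other. Levels were taken per kilobase of the longest complete coding sequence that GENCODE lists for each gene, which need not be the main one. Mean CPM on that scale ran from 1.52 for Rpl23a to 1629 for Rpl41 in the gene rows. With copies it ran from 160.8 for Rpl36 to 1629 for Rpl41. The upper quartile was 3.45 times the lower quartile in the gene rows and 1.60 times with copies.

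Within the pool, few genes stood apart. Each gene with its copies was divided by the sum over the 77, which sets the whole group's change to about 0, and 4 of 77 were then higher and 1 lower at a limma adjusted p of 0.05 or less. On that scale 55.0% of all genes tested were higher and 4.28% lower. Rps18 was the lower gene, at -0.17 (limma adjusted p = 0.0318). The 4 higher ones were Rpl15 at 0.25 (limma adjusted p = 0.0051), Rpl19 at 0.19, Rpl41 at 0.17 and Rpl24 at 0.16. In CPM all 5 fell, Rps18 with its copies from 351.4 ± 30.7 to 231.2 ± 16.5 and Rpl15 with its copies from 345.3 ± 16.1 to 303.5 ± 16.7 (SD, n = 4 each). With the median of ratios, 72 of the 77 sums were lower at a limma adjusted p of 0.05 or less, against 14.0% of all genes tested. Rpl15, Rpl19, Rpl24 and Rpl41 were among the others, with limma adjusted p from 0.0757 to 0.381.

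**Figure D4:**
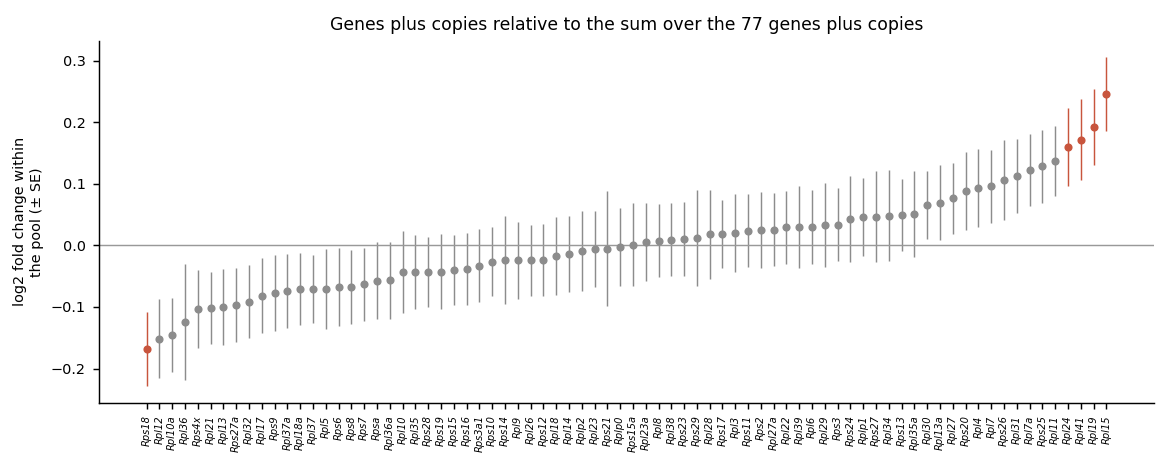
Log2 fold change of 76 genes with their copies after division by the sum over the 77 genes with copies (vertical axis, ± SE), sorted from left to right, with the 5 genes at a limma adjusted p of 0.05 or less in red. The values run from -0.17 for Rps18 to 0.25 for Rpl15, and the other genes drawn did not pass the test.

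The start sites were searched for the pyrimidine tract that the family is known for. RefSeq promoters (GRCm38.p6) were given for 57 of the 77 genes. In the 30 bases around the annotated start, 25 of the 57 (43.9%) held a run of 8 or more bases that are all C or T on the gene's strand, against 14.96% of the tested genes with a promoter. The motif CCGGAAG, bound by ETS factors and searched on both strands of the whole promoter, was present in 24 (42.1%), against 20.99%. The windows of 6 of the 25 genes with a run are shown as examples, and none without a run. These 6 carry it over the annotated start or, for Rpl13a, just after it. Each is given 5′ to 3′ with the run in capitals and the annotated start in the middle.
Rpl35 (chr2:39005117-39005146, minus strand): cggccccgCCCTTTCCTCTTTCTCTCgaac
Rpl15 (chr14:18270972-18271001, minus strand): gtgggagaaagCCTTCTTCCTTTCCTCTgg
Rpl13a (chr7:45128731-45128760, minus strand): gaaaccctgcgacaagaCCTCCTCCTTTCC
Rps18 (chr17:33955651-33955680, minus strand): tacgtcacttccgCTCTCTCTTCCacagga
Rps6 (chr4:86857353-86857382, minus strand): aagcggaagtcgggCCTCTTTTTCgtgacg
Rplp2 (chr7:141447636-141447665, plus strand): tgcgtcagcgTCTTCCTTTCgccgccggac

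Rpl15, with the smallest fall of the summed genes, and Rps18, with the steepest, both carried such a run. Across the 57 genes the median log2 fold change with copies was -0.41 for the 25 with a run and -0.46 for the 32 without, with ranges that overlapped.

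The mature microRNA that the miR-21-/- mice lack pairs with targets through its seed, in capitals here (bases 2 to 8).
mmu-miR-21a-5p (chr11:86584120-86584141, minus strand): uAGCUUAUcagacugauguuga
Of the 77 standard genes, 0 had a 3′ UTR match to the seed in the chosen GENCODE transcript, against 11.0% of the tested coding genes. The search was for ATAAGCT, which pairs with the whole seed. It was also for TAAGCTA, which pairs with bases 2 to 7 and ends in A. The median 3′ UTR was 89 bases for the standard genes and 959 bases for the tested coding genes. Mir21a lies on chromosome 11 with 7 of the standard genes, the nearest of which, Rpl23a, is 8.40 Mb away. The standard genes lie on 19 chromosomes.

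Other genes of protein synthesis had medians closer to 0. The counts that follow stand against 26.5% lower and 9.49% higher among all genes tested, and with the median of ratios against 14.4% lower and 15.9% higher. Of 20 translation factors and related genes whose mRNAs carry the TOP motif, 14 were lower and 0 higher at a limma adjusted p of 0.05 or less. Their median was -0.24 on the log2 scale, and 6 were lower with the median of ratios. Eef2, the translocation factor, had a log2 fold change of -0.48 (limma adjusted p = 0.00282) and Eef1b2 one of -0.46 (limma adjusted p = 0.00144), whereas Hnrnpa1 lay at 0.00 (limma adjusted p = 0.975). Of 10 host genes of small nucleolar RNAs, 8 were lower, with a median of -0.32, and 2 were lower with the median of ratios. Gas5, one of these hosts, fell by 0.34 on the log2 scale (limma adjusted p = 0.00743).

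Genes that build ribosomes, and the proteins of the mitochondrial ribosome, had medians near that of all genes. Of 64 ribosome biogenesis genes, 21 were lower and 3 higher. Their median was -0.13 on the log2 scale, with values from -0.42 for Rrp1b to 0.37 for Noc4l. Of 78 mitochondrial ribosomal proteins, 11 were lower and 2 higher, with a median of -0.09. With the median of ratios, 8 of the biogenesis genes were lower and 7 higher, with a median of -0.02, and 4 of the mitochondrial ribosomal proteins were lower and 4 higher, with a median of 0.02. The 8 chaperones of single ribosomal proteins had 1 gene lower, Aamp, at -0.22 (limma adjusted p = 0.0141), and 0 with the median of ratios.

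**Figure D5:**
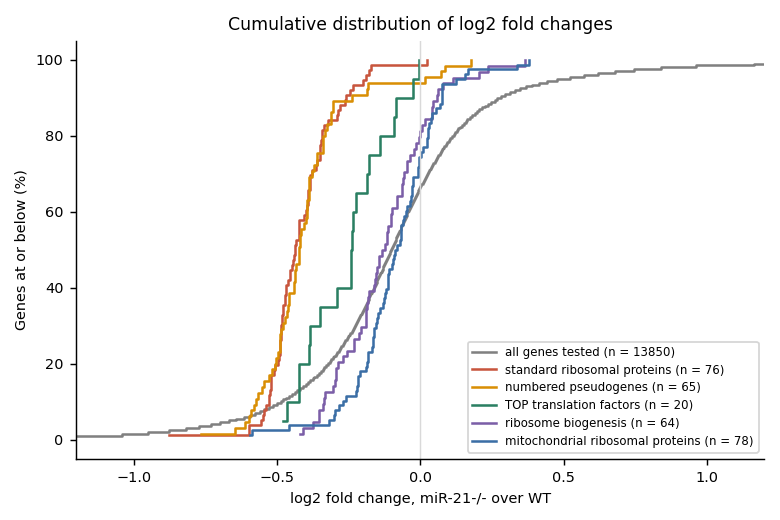
Cumulative percentage of genes (vertical axis) at or below a log2 fold change of miR-21-/- over WT TAMs (horizontal axis) for the ribosomal proteins and related lists. At their middle, the curves of the standard genes and the rows with numbered pseudogene symbols, with medians of -0.44 and -0.42, lie left of the others. Near the ends some curves cross. The curve of the mitochondrial ribosomal proteins, with a median of -0.09, lies near that of all genes.

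Genes that control the family were counted against the same shares of all genes tested. These were 26.5% lower and 9.49% higher, or 14.4% lower and 15.9% higher with the median of ratios. Of 18 genes around mTORC1 and TOP translation, 5 were lower and 0 higher, and the list had a median of -0.11 on the log2 scale. With the median of ratios, 5 were lower and 3 higher, with a median of 0.01. Deptor, an inhibitor of mTOR, fell from 68.8 CPM ± 11.9 to 37.6 CPM ± 4.86 (SD over 4 mice each) with a limma adjusted p of 0.00115, and Eif4ebp2, a repressor of cap-dependent translation, fell by 0.35 on the log2 scale. Myc, which drives transcription of ribosomal protein genes, had a log2 fold change of -0.49 (limma adjusted p = 0.00123), and Rps6kb2, an S6 kinase, one of -0.42 (limma adjusted p = 0.0026). Larp1, the repressor that holds TOP mRNAs, had a log2 fold change of 0.15 (limma adjusted p = 0.0529), or 0.27 (limma adjusted p = 0.004) with the median of ratios. Of 11 tested p53 response genes, 2 were higher and 2 lower, or 4 higher and 2 lower with the median of ratios. Cdkn1a, the cell cycle inhibitor p21, rose by 0.74 on the log2 scale (limma adjusted p = 0.000921) while Sesn1, a stress sensor, fell by 1.02.

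Some markers of other cells moved with genotype, and the marker lists are given beside these results. All libraries had the macrophage profile of the sort, with 10 markers summing to 17682 to 20093 CPM in the WT libraries and 17762 to 21852 CPM in the miR-21-/- libraries. Of these 10, 1 was higher, Fcgr1, an Fc receptor, at 0.75 (limma adjusted p = 0.000561), and 2 were lower, among them Csf1r, the receptor for macrophage growth factor CSF-1, at -0.48 (limma adjusted p = 0.00538). Markers of B cells summed to 57.9 to 98.6 CPM in the WT libraries and 15.7 to 25.2 CPM in the miR-21-/- libraries, and both tested ones of 7 were lower. Neutrophil markers summed to 524.6 to 922.7 against 390.5 to 544.8 CPM, so the sums overlapped, with 5 of 7 tested lower, or 1 of 7 with the median of ratios. Fibroblast and endothelial markers summed to 242.2 to 435.2 against 214.2 to 296.7 CPM, which also overlapped, with 4 of 8 tested lower under either scaling. Tumor epithelial markers summed to 19.9 to 26.3 against 13.7 to 18.4 CPM, with 2 of 4 tested lower, or 0 with the median of ratios. Of this list, Krt19, Epcam and Cldn4 were under 0.15 CPM in every library. Markers of T and NK cells (21.3 to 37.6 against 20.6 to 61.0 CPM), dendritic cells (25.8 to 31.9 against 19.2 to 44.2 CPM) and cycling cells (717.9 to 922.9 against 579.9 to 1036 CPM) overlapped in their sums as well. Single markers in these lists moved in both directions. Clec9a of the dendritic list had a log2 fold change of 1.26 (limma adjusted p = 0.00532), Cd209a one of -1.28 (limma adjusted p = 0.0187), and Prf1 of the T and NK list one of 1.16 (limma adjusted p = 0.0261). Of 7 tested dendritic markers 1 was higher and 2 were lower, and of 8 tested T and NK markers 1 was higher. The part of these cells in the fall of the ribosomal protein genes was not tested.

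Ribosomal protein mRNAs are short, and values by transcript length are given beside the fall. Outside the members and copies, the 350 genes that averaged 20 CPM or more and had a spliced length of at most 1000 bases had a median log2 fold change of 0.01, and 17.1% of them were lower at a limma adjusted p of 0.05 or less. The 5941 longer genes of that abundance had a median of -0.07, with 27.3% of them lower. The part of transcript length in the result was not tested.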

How the data were processed

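RNA of sorted TAMs was sequenced by the authors, 4 WT and 4 miR-21-/- mice, and the deposited values are CPM per gene with a floor of 0.0001. Partek 7.0, STAR and the build mm10 stand in the submitters' processing notes, and their settings were not given in the sources used here. Columns summed to 788099 to 807758 CPM. Of low values, 71.7 to 73.0% were whole reads, so counts were not recovered and no count test was run. Columns were matched to samples by name. No count of molecules was available, so precision rests on the replicates.

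The members and gene lists were chosen with earlier results of these data known. Values were tested with limma 3.58.1 in R 4.3.3 (lmFit, then eBayes with trend) on log2(CPM + 1) for genes whose mean reached 1 CPM after scaling columns to their listed totals, without a replicate block. Settings varied one at a time were the pseudocount (0.1, 10), the filter (none, 5), and in turn median of ratios, quantile normalization, eBayes without trend, arrayWeights, a replicate block and leaving out each library. Sums over copies (blastn, GENCODE vM21, at least 90 or 95% identity) were added after seeing the data. The fit was tested on simulated data. Genes were named for the 5 highest and 5 lowest fold changes, the 5 highest means, the lowest mean, the stricter rule, all tested paralogs, known roles and the extremes of each list. Genes named outside this rule (those with no copy, those that did not pass, and those that stood apart within the pool) were chosen after their values were seen. The table's ends lie 1 base past the annotated ends and were lowered by 1. Some single-gene results are not reported here.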

Additional observations from a re-analysis of the deposited data

Results flagged for a closer look

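Of 76 groups of 4 libraries examined for the named members and for the share of CPM, 3 held a library whose gap to the nearest other was large for the group's range, and chance gives about 1 in 20. Rpl38 measured 3.97 CPM in WT replicate 1 against 5.34 to 5.40 CPM in the other WT libraries, and without that library its log2 fold change was -0.47 (limma adjusted p = 0.0301). Rpl27 measured 5.48 CPM in WT replicate 4 against 4.78 to 4.89 CPM. Rpl18-ps1 measured 11.8 CPM in miR-21-/- replicate 3 against 15.3 to 15.7 CPM.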

How the results depend on the processing

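Except for division by the sum over the standard genes, which gave 3 higher and 2 lower of 76 (4 and 1 of 77 with copies), the alternatives left 0 standard genes higher and between 59 and 77 lower at an adjusted p of 0.05 or less (limma). The number past an adjusted p of 0.005 and 1.5-fold, 3 as reported, was 0 with a pseudocount of 10 or the median of ratios, 1 with copies summed at 90 or 95% identity, and 0 to 6 when 1 library was left out. It was 6 without WT replicate 1 or miR-21-/- replicate 2, 1 without WT replicate 2, WT replicate 3 or miR-21-/- replicate 4, and 0 without miR-21-/- replicate 3. The median log2 fold change was -0.32 with the median of ratios, and its difference from all genes -0.42 with no filter, where many genes near 0 reads enter. The difference in share was -0.35 percentage points, or -0.90 with copies, which add reads by construction. Leaving out 1 library gave 64 to 69 genes lower, and Rpl15 lost its call (adjusted p 0.0507 to 0.0624) without WT replicate 2, 3 or 4 or miR-21-/- replicate 1 or 2.

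Division by the sum over the standard genes, which centers the family by construction, turned the sign of Rpl10 (0.028), Rpl11 (0.20), Rpl13a (0.039), Rpl15 (0.22), Rpl27 (0.16), Rpl3-ps1 (0.00061), Rpl36al (0.23), Rpl4 (0.089), Rpl5 (0.022), Rpl7l1 (0.071), Rpl9 (0.22), Rplp0 (0.00086), Rplp1 (0.064), Rps25 (0.071), Rps27rt (0.042) and Rps3a3 (0.12). Rpl36a ran from -0.054 to 0.071 when 1 library was left out, below 0 without WT replicate 3 or miR-21-/- replicate 2 or 4, and turned to -0.49 with copies at either identity. Rps4l ran from -0.11 to 0.29, below 0 without WT replicate 2. For the other changes the cause was not tested.

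The replicate numbers did not pair the samples, with correlations of same-numbered libraries of 0.08, -0.11, -0.14 and 0.22, where 1 of 4 correlated best with its own number. A replicate block left 69 standard genes lower, 3 past the stricter rule and a median of -0.44. Rows under a few CPM are limited by depth, since 3 reads correspond to 0.0899 to 0.148 CPM.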
